A study of Mus musculus with 4 samples.

Results

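The histone genes of the mouse are described here across the cell types of the stomach epithelium and between cells sorted with and without selection for a retained histone label. The members are the rows whose symbol begins with Hist1h, Hist2h, Hist3h, Hist4h, H2af, H3f3, H1f or H1fx and that held at least 20 counts over all cells, which gave 71 of the 17712 genes in the table. Of these, 60 are replication-dependent loci of the Hist1 to Hist4 clusters, 10 are replacement histones, and 1 is the antisense RNA H3f3aos, which met the rule by its name and was set aside. Just outside the minimum were Hist1h3h with 8 counts and Hist1h1t with 11, and just inside were Hist1h4f and Hist1h2bk with 22 each.

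The cells came from the stomachs of 14-week-old female mice of the strain Rosa26iH2b-GFP, in which a histone H2b-GFP fusion under the tetracycline-responsive TRE3G promoter and a constitutively expressed Tet-on transactivator were both knocked in at Rosa26. All mice had eaten doxycycline for 4 weeks to make the label and were then chased without it for 6 weeks. GFP+ cells were sorted as Epcam-positive and GFP-positive, Epcam+ cells as Epcam-positive only, both after removal of dead, Cd45-positive and Cd31-positive cells, and each sort gave 2 libraries (GFP+ 1 and 2, Epcam+ 1 and 2). Sorted cells of 2 mice were combined in a load, so a library is a pool and not 1 animal, and Epcam+ cells can themselves include GFP-positive ones. The reporter is itself an H2B fusion that is made in the same cells, and whether its RNA added to any H2B row was not tested.

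Libraries held 467 and 444 GFP+ cells, against 1642 and 1896 Epcam+ cells, with 35571141 to 79455225 UMIs (unique molecular identifiers, each counting 1 captured RNA molecule) per library. The median cell held 45119 and 104840 UMIs in the GFP+ libraries, against 35067 and 31735 in the Epcam+ libraries. The authors' clusters are called here by their marker genes: 3 and 4 isthmus, the zone that holds the dividing cells, 0 neck, 1 and 5 chief, 2 pit, 6 and 7 endocrine, 8 parietal and 9 tuft. The summed level of the 5 isthmus markers fixed for the check (Mki67, Top2a, Pcna, Mcm6 and Stmn1) was 2130 CPM (a counts-per-million value, taken over all UMIs of the cells that were summed) in cluster 4 and 1254 CPM in cluster 3. Chief cluster 1 stood at 7.45 CPM and no other cluster above 332 CPM. Isthmus cells were 5.996% and 4.05% of the GFP+ libraries, against 25.9% and 21.3% of the Epcam+ libraries. Markers of fibroblasts and muscle (160 CPM) and of immune cells (109 CPM) were highest in cluster 7, so histone levels there may include those of other cells, which was not tested.

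Replication-dependent histones package newly made DNA and are transcribed mainly in S phase, from clustered genes that mostly lack introns. Their mRNAs usually end not in a poly(A) tail but in a conserved stem-loop that is bound by SLBP and cut with the help of the U7 particle, so that capture on oligo-dT, as in the droplet libraries used here, sees them poorly. Some of these loci also give longer, polyadenylated mRNAs, which is known above all from cells that have stopped dividing. Replacement histones such as H3.3 and H2A.Z are made throughout the cell cycle from polyadenylated mRNAs and are exchanged into chromatin independently of DNA synthesis. A CPM value of these genes is therefore the level of their captured 3′ ends and not of all their transcripts.

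The stem-loop was searched in every annotated transcript of the members (GENCODE on GRCm38), because its distance from the annotated 3′ end separates short ends from extended ones. It was found in 44 of the 60 replication-dependent members and in 1 of the 10 replacement members, H2afx. In 22 of the 44 the furthest annotated end lay within 100 bases of the stem-loop and in 22 it lay beyond, with a median distance of 91 bases and a range of 3 to 4884. The stem-loop sequences below are those of members on which the results turn, with the stem-loop in capitals and 7 bases on either side.
Hist1h3c: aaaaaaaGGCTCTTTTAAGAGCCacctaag
Hist1h2ae: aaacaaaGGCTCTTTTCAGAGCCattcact
Hist1h2ab: aaacaaaGGCTCTTTTCAGAGCCacccaca
Hist1h1c: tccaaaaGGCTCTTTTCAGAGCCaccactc
Hist1h1e: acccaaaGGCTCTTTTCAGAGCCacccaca
Hist1h4d: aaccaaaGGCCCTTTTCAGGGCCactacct
Hist1h4h: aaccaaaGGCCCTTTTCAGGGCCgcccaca
Hist2h3c1: ccacaaaGGCTCTTTTCAGAGCCaccacag
H2afx: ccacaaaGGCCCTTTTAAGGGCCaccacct
They lie at chr13:23745040-23745069 on the minus strand (Hist1h3c), chr13:23570661-23570690 minus (Hist1h2ae), chr13:23751565-23751594 plus (Hist1h2ab), chr13:23739505-23739534 plus (Hist1h1c), chr13:23621775-23621804 minus (Hist1h1e), chr13:23581943-23581972 plus (Hist1h4d), chr13:23531451-23531480 plus (Hist1h4h), chr3:96247320-96247349 plus (Hist2h3c1) and chr9:44335233-44335262 plus (H2afx). The annotated end followed the stem-loop by 74 bases in Hist1h3c, 151 in Hist1h2ae and 11 in Hist1h2ab. It followed by 840 bases in Hist1h1c, 1153 in Hist1h1e, 770 in Hist1h4d, 46 in Hist1h4h, 1167 in Hist2h3c1 and 822 in H2afx. The form printed for Hist1h1c was shared by 26 members, that of Hist1h4d and Hist1h4h by 6 members, all of them H4 genes, and that of Hist1h3c by 5. The search found no stem-loop in 16 replication-dependent members, Hist1h2bc, Hist1h1b and Hist1h1a among them, which says only that these letters are not in their annotated transcripts.

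The promoters of 3 chromosome 13 members are shown because their levels in the isthmus, given further on, ran from strongly raised (Hist1h1b, Hist1h2ae) to a difference that did not pass the test (Hist1h4h). Each runs from 250 bases before to 50 bases after the start in RefSeq (GRCm38.p6), with CCAAT, the octamer ATTTGCAT, TATAAA and AAACACA in capitals on either strand (TATAAA on the gene's strand only).
Hist1h1b: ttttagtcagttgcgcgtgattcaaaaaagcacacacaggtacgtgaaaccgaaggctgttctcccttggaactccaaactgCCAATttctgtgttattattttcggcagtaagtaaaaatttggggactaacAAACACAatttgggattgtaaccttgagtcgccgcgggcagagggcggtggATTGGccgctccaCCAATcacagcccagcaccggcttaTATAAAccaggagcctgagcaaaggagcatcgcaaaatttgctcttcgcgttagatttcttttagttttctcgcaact
Hist1h2ae: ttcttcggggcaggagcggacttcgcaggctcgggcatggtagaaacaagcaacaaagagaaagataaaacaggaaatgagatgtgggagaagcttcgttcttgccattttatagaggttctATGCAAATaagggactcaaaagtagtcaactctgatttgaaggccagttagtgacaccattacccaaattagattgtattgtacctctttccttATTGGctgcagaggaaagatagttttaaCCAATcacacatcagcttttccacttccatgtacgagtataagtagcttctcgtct
Hist1h4h: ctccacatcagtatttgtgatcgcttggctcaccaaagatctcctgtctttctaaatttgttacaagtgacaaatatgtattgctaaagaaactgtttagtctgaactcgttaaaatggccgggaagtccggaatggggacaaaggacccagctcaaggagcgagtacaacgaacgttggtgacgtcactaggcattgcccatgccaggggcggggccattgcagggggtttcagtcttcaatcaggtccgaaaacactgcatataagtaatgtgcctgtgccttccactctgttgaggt
They are chr13:21780576-21780875 minus, chr13:23571171-23571470 minus and chr13:23530794-23531093 plus. The Hist1h2ae window also covers the start of the neighbouring Hist1h2bg on the other strand. RefSeq promoters could be matched to 55 replication-dependent and 9 replacement members, and Hist1h2bc was not among them. CCAAT was present in 85.5% of the replication-dependent and 66.7% of the replacement promoters, against 37.8% of all 27025 promoters of this length. The octamer stood in 20% of the replication-dependent promoters (11 of 55) and in 1.74% of all promoters, and TATAAA in 45.5% (25 of 55) and in 8.89%. AAACACA stood in 10.9% of the replication-dependent promoters and in 7.25% of all. These matches are descriptions of sequence and not of binding.

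Replacement histones made up most of the captured histone RNA. The 60 replication-dependent members held 145233 UMIs over all cells, or 0.0615% of all UMIs, against 766043 UMIs or 0.324% for the 10 replacement members. Hist1h2bc, an H2B gene, held 29.8% of the replication-dependent UMIs and Hist1h1c, which encodes the linker histone H1.2, held 20.9%, while the median member held 335.5 UMIs. H3f3b and H3f3a, which both encode H3.3, and H2afz, which encodes H2A.Z, held 43.6%, 20.6% and 15.2% of the replacement UMIs. Of the replication-dependent members 47 lie on chromosome 13, 10 on chromosome 3, 2 on chromosome 11 and 1 on chromosome 6, while the replacement members are spread over 8 chromosomes.

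Near-identical copies limit what can be said of single replication-dependent genes. In 44 of the 60, at least 1 of the 90-base windows of the last 500 transcript bases was found in another gene's transcripts, and in 24 at least 50% of the windows were, against 3 and 0 of the 10 replacement members. All such windows of Hist2h3c1 were shared with the overlapping model Gm20634, and 99.0% of those of Hist1h1e with Hist1h2be and Gm11398, which overlap it on the same strand. Shares were 47.7% for Hist1h2ae, 41.6% for Hist1h3c and 40.2% for Hist1h4h, and 0% for Hist1h2bc, Hist1h1c, Hist1h1b and Hist1h4d. How reads were split between such genes is uncertain, so the values of Hist2h3c1, Hist1h1e and Hist1h2be in particular are values of rows of the table.

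Among the clusters with 20 or more cells in a library, both classes were highest in cluster 4. Tuft cluster 9, with fewer than 20 cells in each library, is left out of this and the later rankings. In its 18 and 13 Epcam+ cells the replication-dependent level was 1483 and 1114 CPM and the replacement level 8402 and 8219 CPM. In its 1 GFP+ cell they were 1383 and 11577 CPM. The summed level of the replication-dependent members was 2416 ± 295 CPM in cluster 4 and 863 ± 175 CPM in cluster 3 (mean ± SD, n = 2 Epcam+ libraries, the only ones with 20 or more cells there). In the other clusters it was 968 ± 107 CPM in cluster 6 (n = 4), 963 ± 40.1 in cluster 8 (n = 2), 835 ± 236 in cluster 7 (n = 3), 610 ± 50.6 in neck cluster 0 and 576 ± 134 in pit cluster 2 (n = 4 each). Chief clusters 5 and 1 were lowest, with 415 ± 53.1 and 258 ± 16.3 CPM (n = 4 each). Cluster 4 did not overlap with any other cluster, while clusters 3, 6, 7 and 8 overlapped with each other. The ratio of cluster 4 to cluster 3 was 2.66 and 2.99 in Epcam+ 1 and 2. Replacement histones reached 9237 ± 116 CPM in cluster 4 and 5739 ± 32.5 CPM in cluster 3, a ratio of 1.59 and 1.63, against 999 ± 126 CPM in cluster 1. These levels are a description, since the authors' clusters may have been made in part from these genes.

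The low CPM of chief cells depended on the denominator. Clps, Pla2g1b and Pgc, the transcripts of secreted digestive proteins, took most of the UMIs of cluster 1. With these 3 genes left out of the denominator, cluster 1 stood at 1459 ± 104 CPM for the replication-dependent and 5645 ± 758 CPM for the replacement members, and the ratio of cluster 4 to cluster 1 averaged 1.80 and 1.81, against 9.78 and 9.82 with all UMIs. Without Hist1h2bc and Hist1h1c the replication-dependent level on the scale without the enzyme genes was 1827 ± 300 CPM in cluster 4 and 356 ± 60.8 CPM in cluster 1. Of the clusters ranked, cluster 4 stayed the highest in both classes and on both scales.

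**Figure D1:**
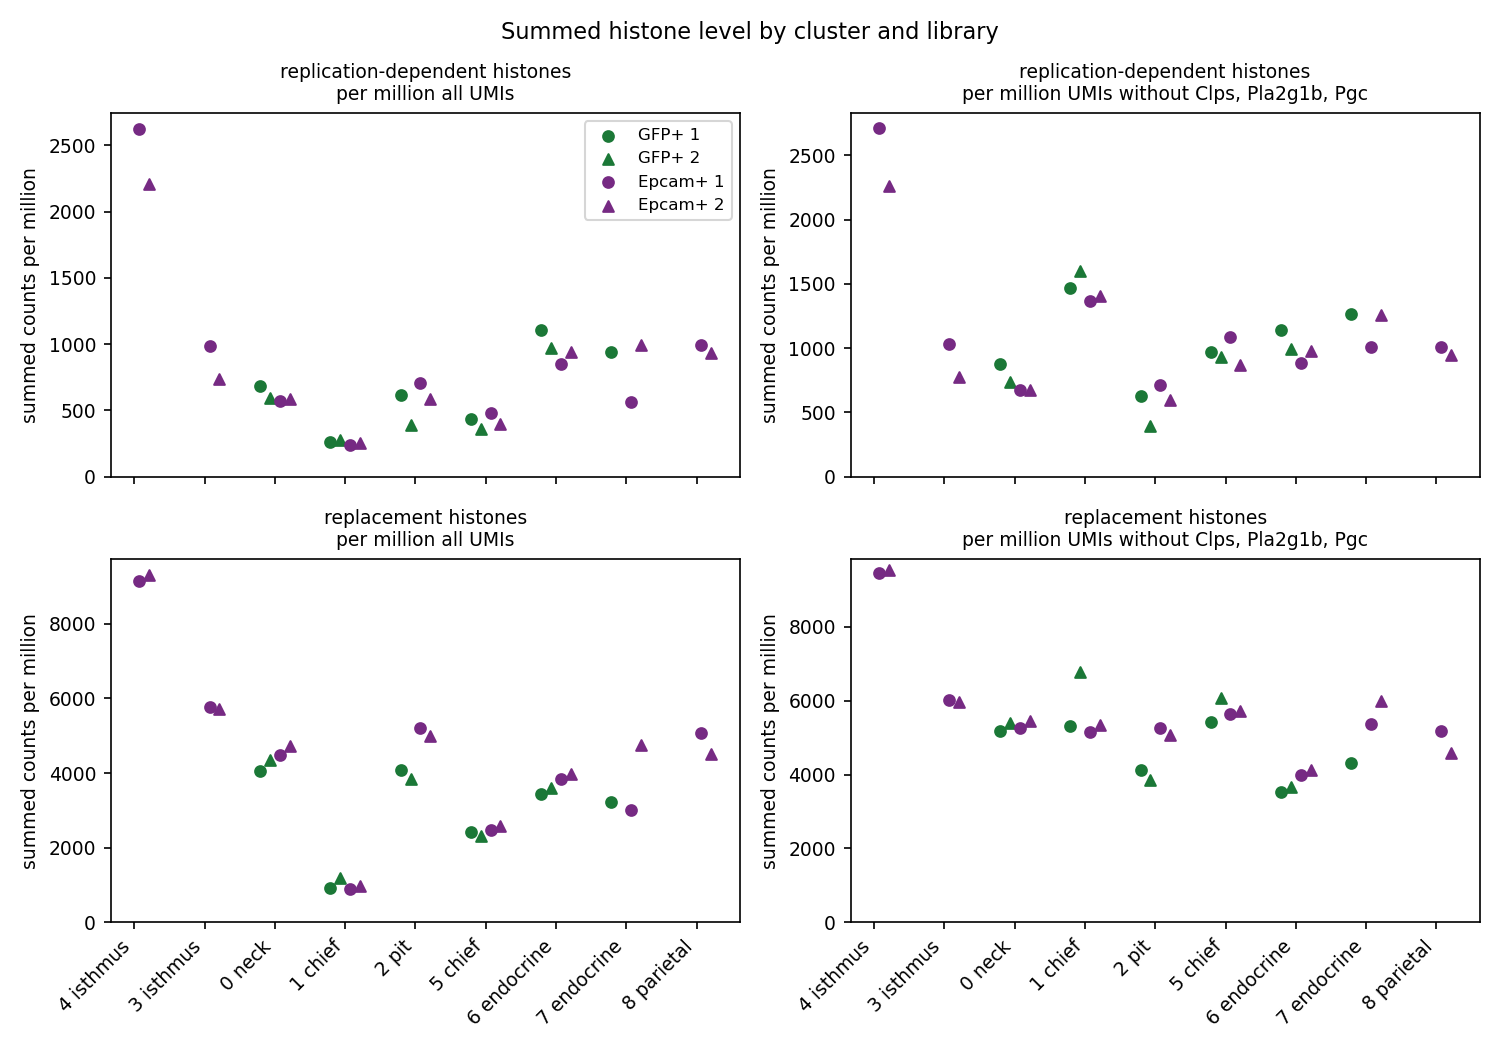
Summed CPM of the replication-dependent (upper panels) and replacement members (lower panels) in each of the authors' clusters, with 1 point per library, taken over all UMIs (left) and over the UMIs other than Clps, Pla2g1b and Pgc (right). GFP+ points are missing in clusters 3 and 4, where the GFP+ libraries held fewer than 20 cells each. The Epcam+ points of cluster 4 lie above those of all other clusters in each panel, and cluster 1 moves from the lowest level on the left to the range of the others or above on the right.

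The few GFP+ cells of the isthmus carried these RNAs as well. The summed replication-dependent level was 4090 and 2617 CPM in the 11 and 8 GFP+ cells of cluster 4, and 867 and 374 CPM in the 17 and 10 GFP+ cells of cluster 3. Hist1h1b stood there at 301 CPM (exact 95% Poisson interval 261 to 345) and 218 CPM (181 to 260) in cluster 4. These intervals cover counting error only, and with so few cells no comparison with Epcam+ cells was made.

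Where a member was highest differed between the classes and within the replication-dependent class. By mean CPM, 45 of the 60 replication-dependent members were highest in cluster 4 and 1 in cluster 3, and 24 stayed under 1 CPM in every cluster outside the isthmus. Another 13 reached 10 CPM or more in at least 1 such cluster. Hist1h2bc, Hist1h4h, Hist2h2be and Hist4h4 were highest in endocrine cluster 6, a further 8 members in cluster 7, Hist1h1c in parietal cluster 8 and Hist2h2aa2 in cluster 5. With the 3 enzyme genes left out, 43 were highest in cluster 4 and 6 in cluster 1, among them Hist1h2bc, Hist1h4h and Hist2h3c1. Of the replacement members 7 were highest in cluster 4, H3f3a and H2afy2 in cluster 6 and H2afj in cluster 0.

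**Figure D2:**
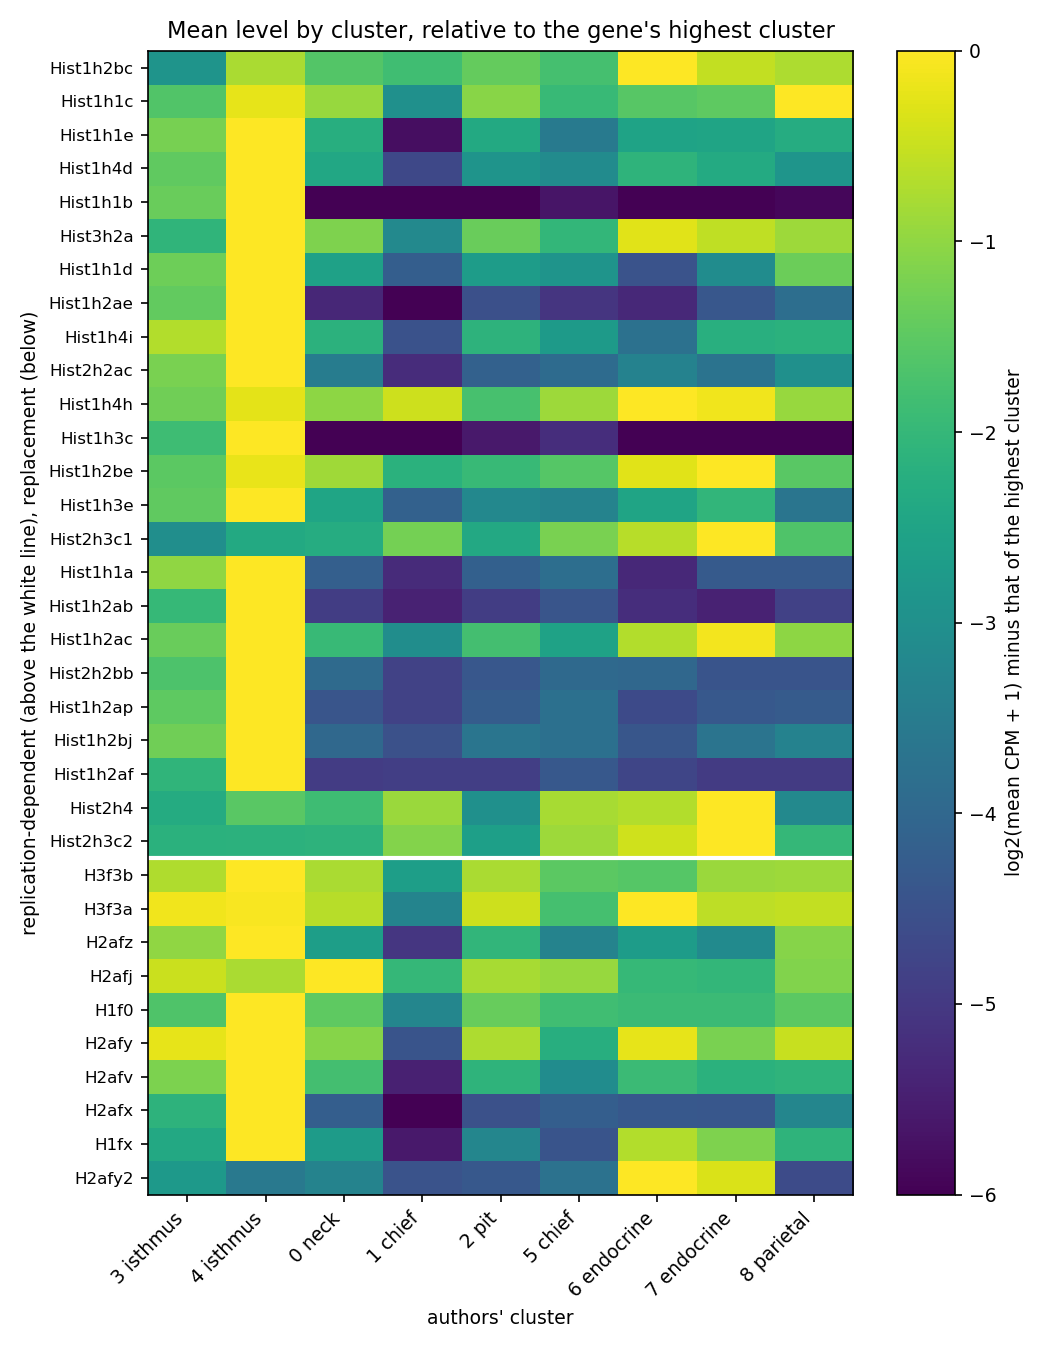
Mean level of the 24 most abundant replication-dependent members (above the white line) and the 10 replacement members (below) in each of the authors' clusters, as log2(mean CPM + 1) minus that of the gene's highest cluster, so that yellow is the highest cluster and the darkest colour stands for −6 or less. Most rows above the line are yellow only in cluster 4, while Hist1h2bc, Hist1h1c and Hist1h4h are bright in several clusters.

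The linker histones of the H1 family, which bind the DNA between nucleosomes, showed both kinds of pattern. Hist1h1b, which encodes H1.5, had 111 and 89.6 CPM in cluster 3 of Epcam+ 1 and 2 and 297 and 228 CPM in cluster 4. In neck cluster 0 it had 0 and 0.50 CPM in the GFP+ libraries, against 0.93 and 1.97 CPM in the Epcam+ libraries, and it was at 0 in all 3 libraries of cluster 7. Its levels in the isthmus did not overlap with those of any other cluster. Hist1h1e had 154 and 113 CPM in cluster 3 and 352 and 273 CPM in cluster 4, with 70.7 and 64.5 CPM in the GFP+ libraries, against 61.9 and 63.1 CPM in the Epcam+ libraries, of cluster 0. Hist1h1c was spread more evenly, with 147 and 104 CPM in cluster 3 and 335 and 326 CPM in cluster 4. Its highest level was 393 and 382 CPM in the parietal cells of cluster 8. Hist1h1d had 41.0 and 29.7 CPM in cluster 3 and 105 and 73.5 CPM in cluster 4.

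Among the H2A genes, whose products pair with H2B in the nucleosome, Hist1h2ae had 55.5 and 35.5 CPM in cluster 3 and 149 and 102 CPM in cluster 4. In chief cluster 1 it had 0 and 0.20 CPM in the GFP+ libraries, against 0.13 and 0.14 CPM in the Epcam+ libraries. Hist2h2ac followed with 40.0 and 29.0 CPM in cluster 3 and 88.9 and 74.2 CPM in cluster 4. Hist3h2a, from the small cluster on chromosome 11, was high in endocrine cells too, with 49.1 and 39.4 CPM in the GFP+ libraries, against 46.5 and 59.1 CPM in the Epcam+ libraries, of cluster 6. That range overlapped with its 51.3 and 66.4 CPM in cluster 4 and lay above its 13.2 and 13.4 CPM in cluster 3.

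H2B was dominated by Hist1h2bc (chr13:23684199-23692908, plus strand), which did not follow the isthmus. It had 621 and 553 CPM in the GFP+ libraries, against 456 and 502 CPM in the Epcam+ libraries, of cluster 6. It had 319 and 305 CPM in cluster 4 and 324 and 314 CPM in cluster 8, and its lowest level was 76.3 and 64.5 CPM in cluster 3. Chief cluster 1 lay between them with 143 and 153 CPM in the GFP+ libraries, against 147 and 147 CPM in the Epcam+ libraries. Without the 3 enzyme genes in the denominator these were 815 and 879 CPM, against 840 and 801 CPM, above all other clusters. Hist3h2ba, an H2B gene of the chromosome 11 cluster, had 42.2 and 33.5 CPM in the GFP+ libraries, against 14.2 and 14.6 CPM in the Epcam+ libraries, of cluster 6.

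In cluster 4 the summed level was 1033 ± 137 CPM for the 5 H1 members, 454 ± 18.8 CPM for the 16 H2B members, 417 ± 64.8 CPM for the 16 H2A members, 344 ± 45.4 CPM for the 12 H4 members and 168 ± 29.4 CPM for the 11 H3 members (SD, n = 2). Hist1h3c had 21.97 and 18.7 CPM in cluster 3 and 85.1 and 68.2 CPM in cluster 4, and stood at 0 in every library of clusters 6, 7 and 8. Hist1h4d made up most of the H4 level, with 109 and 72.2 CPM in cluster 3 and 284 and 218 CPM in cluster 4. Hist1h4i had 42.8 and 34.2 CPM in cluster 3 and 59.5 and 66.9 CPM in cluster 4. Hist1h4h broke the pattern, with 6.05 and 4.80 CPM in cluster 3 and 13.5 and 11.1 CPM in cluster 4. In endocrine cluster 6 it had 17.0 and 17.5 CPM in the GFP+ libraries, against 9.75 and 14.6 CPM in the Epcam+ libraries.

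UMIs of the replacement histones were found in every cluster, but for H2afy2, which had none in cluster 8. H3f3b had 2209 and 1973 CPM in cluster 3 and 3539 and 3377 CPM in cluster 4. H3f3a differed little between these clusters, with 1298 and 1404 CPM in cluster 3 and 1352 and 1502 CPM in cluster 4. H2afz had 1146 and 1251 CPM in cluster 3 and 2345 and 2417 CPM in cluster 4, while parietal cluster 8 had 1323 and 917 CPM. H2afx, which encodes the H2A.X variant that is phosphorylated at DNA breaks, had 82.8 and 79.4 CPM in cluster 3 and 345 and 362 CPM in cluster 4. H1f0, the linker histone H1.0 known from differentiated cells, had 190 and 160 CPM in cluster 3 and 553 and 557 CPM in cluster 4. H2afj ran the other way, with 423 and 409 CPM in cluster 3 and 329 and 352 CPM in cluster 4, below its 591 and 613 CPM in the GFP+ libraries, against 554 and 556 CPM in the Epcam+ libraries, of cluster 0. H2afy2, a macroH2A gene, was near 1 CPM in cluster 4 (0.99 and 1.16) but had 17.0 and 26.3 CPM in the GFP+ libraries, against 29.2 and 22.3 CPM in the Epcam+ libraries, of cluster 6.

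The isthmus was tested against the other cell types in clusters rebuilt without the member genes, since 30 replication-dependent and 5 replacement members had been among the variable genes. Sums per library and cluster were compared (23 sums, library as a block) with edgeR's quasi-likelihood test. The isthmus sums came from the Epcam+ libraries only. The 12 residual degrees of freedom arise because several cluster sums of a library were counted, so the p-values rest on fewer libraries than sums. Of 54 replication-dependent members tested, 37 were higher in the isthmus, 2 were lower and 15 did not pass. Of the 10 replacement members 9 were higher and none lower. Over all genes 48.3% of 14392 passed, 30.1% being higher and 18.2% lower in the isthmus. The median log2 difference was 2.68 for the replication-dependent and 0.67 for the replacement members, against 0.07 for all genes. The remaining 6 replication-dependent members did not pass the filter on low counts, and a member that is low elsewhere passes it only through the isthmus. An edgeR SE, here and below, is the size of the log2 difference over the square root of the F statistic. It is derived from the test and was not estimated by the fit.

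The largest difference among the named members was that of Hist1h3c, with a log2 difference of 8.62 ± 0.25 (SE, edgeR adjusted p = 6.87e-15). Hist1h1b followed at 7.55 ± 0.29 (edgeR adjusted p = 2.92e-15), Hist1h2ae at 4.54 ± 0.17 and Hist2h2ac at 3.47 ± 0.13. Hist1h1d (2.23 ± 0.15), Hist1h4d (2.04 ± 0.09) and Hist1h1e (1.91 ± 0.07) differed by less. Hist1h4h (0.34 ± 0.26, edgeR adjusted p = 0.305), Hist3h2a (−0.04 ± 0.11, adjusted p = 0.882) and Hist1h1c (−0.09 ± 0.15, adjusted p = 0.691) did not pass. Hist1h2bc was lower in the isthmus (log2 difference −1.19 ± 0.13, edgeR adjusted p = 8.65e-08), and so was Hist2h3c1 (−2.07 ± 0.27, edgeR adjusted p = 1.36e-06). By type, 4 of 5 H1, 10 of 13 H2A, 11 of 15 H2B, 9 of 11 H3 and 3 of 10 H4 members tested were higher.

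Among the replacement histones the difference was largest for H2afx (log2 difference 3.08 ± 0.11) and next for H2afz (1.78 ± 0.08), H1fx (1.53 ± 0.19) and H2afv, the second H2A.Z gene (1.44 ± 0.08). The rest were smaller, with 0.70 ± 0.06 for H2afy, 0.63 ± 0.07 for H1f0, 0.43 ± 0.10 for H3f3b, 0.33 ± 0.08 for H2afj and 0.27 ± 0.06 for H3f3a. The difference of H2afj was −0.0050 without Epcam+ replicate 2. H2afy2 stood at −0.41 ± 3.98 and did not pass. Scaling by library totals in place of TMM factors moved the median of all genes to 0.46, so that differences of this size depend on the scaling.

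The replication-dependent members were also grouped by their annotated ends, as a description, with a boundary of 100 bases that was chosen after the values were seen. Of the members with the stem-loop within 100 bases of the annotated end 13 of 17 tested were higher in the isthmus, with a median log2 difference of 3.56. Of those with a longer end 12 of 22 were higher and 1 lower, with a median of 1.11. Of those without a stem-loop in their transcripts 12 of 15 were higher and 1 lower, with a median of 4.25. The members with longer ends held 54.0% of the replication-dependent UMIs, those without a stem-loop 38.2% and those with a short end 7.86%. Of the 22 members with a short end 17 passed the filter on low counts, while all 22 with a longer end did. A member that is low elsewhere passes it only through the isthmus, so the groups are not filtered alike. Over all genes tested 30.1% were higher and 18.2% lower.

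**Figure D3:**
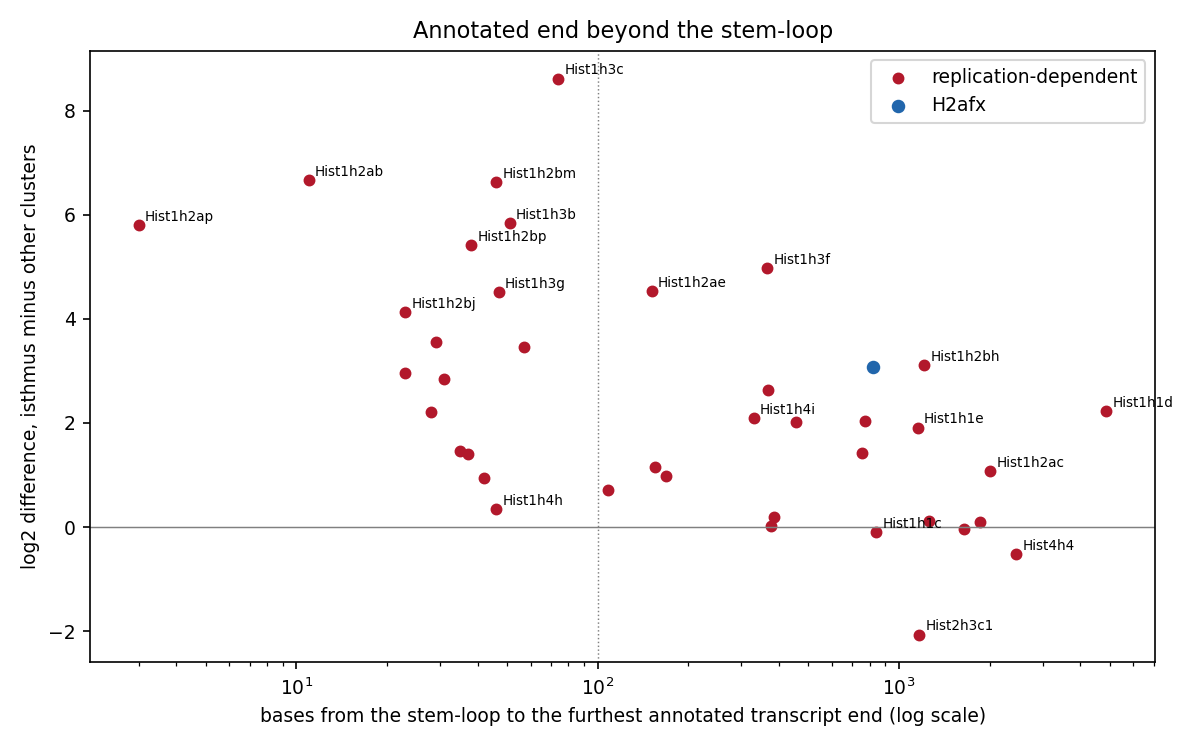
Log2 difference between the isthmus and the other clusters (edgeR, rebuilt clusters) against the number of bases from the stem-loop to the furthest annotated transcript end (log scale), for each member with a stem-loop that was tested. Replication-dependent members are red, H2afx is blue and the dotted line marks 100 bases. The differences over 5 all lie left of the line, Hist2h3c1 is the only labelled member below −1, and Hist1h4h lies near 0 in spite of its short end.

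Within the isthmus, cluster 3 was lower in most histone genes than cluster 4. Of 49 replication-dependent members tested 35 were lower in cluster 3, 1 was higher (Hist1h4a, log2 difference 1.01 ± 0.35) and 13 did not pass, with a median of −0.95. Of the 10 replacement members 6 were lower and 2 higher. Over all genes 38.4% of 11424 passed, 20% being higher and 18.4% lower in cluster 3, and their median difference was 0.01. This test rests on 4 sums of the Epcam+ libraries with 1 residual degree of freedom. DESeq2 called 26 members in place of 44, 1 higher and 25 lower. Over all genes it called 963 of 10316, so the drop is not particular to the members.

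Hist1h2bc (log2 difference −2.09 ± 0.05), Hist3h2a (−1.83 ± 0.10), Hist1h3c (−1.24 ± 0.08) and Hist1h1c (−1.13 ± 0.05) were lower in cluster 3 by the most among the abundant replication-dependent members. Hist1h4d (−0.99 ± 0.05), Hist1h4h (−0.89 ± 0.18), Hist1h1d (−0.75 ± 0.07), Hist1h2ae (−0.69 ± 0.07), Hist1h1e (−0.67 ± 0.05), Hist1h1b (−0.61 ± 0.05), Hist2h2ac (−0.52 ± 0.08) and Hist1h4i (−0.36 ± 0.08) were lower by less. Hist1h2bc and Hist1h1c thus differed between the isthmus clusters although Hist1h1c did not pass against the other cell types. Of the replacement members H1fx (−2.10 ± 0.10), H2afx (−1.54 ± 0.05), H1f0 (−1.29 ± 0.04), H2afv (−1.03 ± 0.05), H2afz (−0.87 ± 0.03) and H3f3b (−0.51 ± 0.03) were lower in cluster 3. H2afj (0.31 ± 0.04) and H2afy2 (2.47 ± 0.52) were higher, and H3f3a (−0.02 ± 0.03) and H2afy (−0.09 ± 0.04) did not pass.

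**Figure D4:**
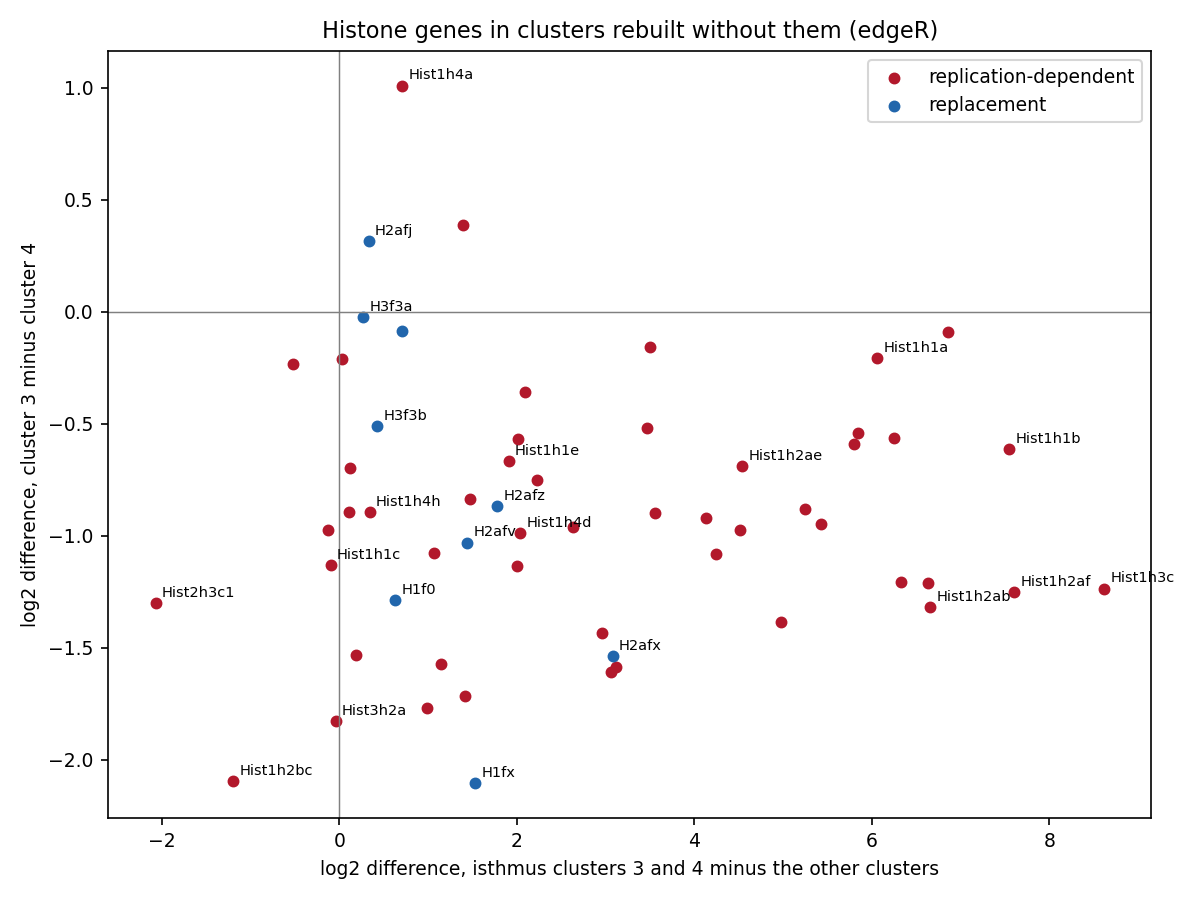
Log2 difference between isthmus clusters 3 and 4 and the other clusters (x axis) against the log2 difference between cluster 3 and cluster 4 (y axis), both from edgeR in clusters rebuilt without the members, with 1 point per replication-dependent (red) or replacement (blue) member tested in both. H2afy2 (−0.41, 2.47) is left out for scale. Most red points lie right of 0 and below 0, and Hist1h2bc lies left of 0 and at the bottom.

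Other genes of the pathway split between the isthmus clusters in another way. Mki67 and Top2a, known from late S phase to mitosis, had 108 and 129 CPM and 134 and 134 CPM in cluster 3, against 556 and 589 CPM and 495 and 515 CPM in cluster 4. Pcna, the sliding clamp of replication, had 351 and 374 CPM in cluster 3, against 145 and 173 CPM in cluster 4, and the helicase subunit Mcm6 had 211 and 209 CPM, against 70.4 and 76.1 CPM. Cluster 3 was thus higher in both replication genes and lower in most histones. Of the 12 S-phase entry genes listed, all passed as higher in the isthmus (median log2 difference 2.69). In cluster 3 against cluster 4, 10 were higher and 1 lower, with a median of 1.34. These counts and those of the lists that follow stand beside 30.1% higher and 18.2% lower of all genes tested in the isthmus, and 20% and 18.4% in cluster 3. Only the histone members were left out when the clusters were rebuilt, so the genes of these lists may have helped to make the clusters. Their differences between clusters are therefore a description and not an independent test.

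The S-phase entry genes with the largest differences in the isthmus were Ccna2, the S and G2 phase cyclin A2 (6.37 ± 0.19), Rrm2, a ribonucleotide reductase subunit (5.77), and Ccne1, which encodes cyclin E1 (4.70). Those most raised in cluster 3 against cluster 4 were Ccne2 (3.57), the origin licensing factor Cdt1 (3.50) and the transcription factor E2f1 (3.45), and Ccna2 was the 1 that was lower (−2.15 ± 0.06). Tyms, the thymidylate synthase, was higher in the isthmus by 2.68 and did not pass between clusters 3 and 4 (0.10). The phosphatase Cdc25a was higher by 0.75 in the isthmus and by 0.48 in cluster 3.

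Of the 15 genes listed for histone mRNA processing 11 were higher in the isthmus and none lower (median log2 difference 0.58), and 5 of 14 were higher and 1 lower in cluster 3. Slbp, whose product binds the stem-loop, had 167 and 176 CPM in cluster 3, against 83.3 and 85.7 CPM in cluster 4 (1.78 ± 0.06), and was higher in the isthmus by 1.54 ± 0.10. It thus ran against most histone members between these clusters. Zfp473, a part of the processing machinery, was higher in the isthmus by 3.05, the exonuclease Eri1 by 1.62 and the cleavage factor subunit Cpsf2 by 0.63, while the cap-binding subunit Ncbp2 (0.09) did not pass. Casp8ap2 (1.24) and Eri1 (0.59) were higher in cluster 3, Mepce was lower (−0.47), and Cpsf2 (0.14) and Ncbp2 (−0.03) did not pass.

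Of the 18 chaperones of newly made histones 16 were higher in the isthmus and none lower (median 1.36), and 13 were higher and none lower in cluster 3. Asf1b, an H3 and H4 chaperone, was higher in the isthmus by 6.42, and Chaf1b and Chaf1a, subunits of the chromatin assembly factor, by 4.61 and 3.45. The most abundant of the list, Anp32b, Nap1l1 and Rbbp7, were higher by 1.41, 1.32 and 1.01. In cluster 3 against cluster 4 the largest differences were those of the helicase subunit Mcm2 (2.38), Chaf1b (2.33) and Tonsl (1.90).

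Of 18 genes for deposition of replacement histones 11 were higher and 3 lower in the isthmus (median 0.38), and 4 were higher and 5 lower in cluster 3. Cenpa, the centromeric H3 variant, which the symbol rule leaves out, had 10.5 and 9.37 CPM in cluster 3, against 307 and 323 CPM in cluster 4 (−4.48 ± 0.07). Cenpa (2.84) and its loading factors Oip5 (5.72) and Mis18a (3.62) were higher in the isthmus, and its chaperone Hjurp was lower in cluster 3 (−0.69). Anp32e, an H2A.Z chaperone, was higher in the isthmus (1.07) and lower in cluster 3 (−1.16). Dek was higher in the isthmus by 2.00, and Atrx, which acts in H3.3 deposition, was lower (−0.32).

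Of 12 linker and H2A partners all were higher in the isthmus (median 1.12), and 4 were higher and 6 lower in cluster 3. The chromatin proteins Hmgb2, Hmga1 and Hmgb1 were higher in the isthmus by 3.74, 2.19 and 1.23, the importin Kpna2 by 1.64 and the chaperone Npm1 by 1.08. In cluster 3 Kpna2 (−2.20), Hmgb2 (−1.48), Hmgn2 (−1.04) and Hmgb1 (−0.85) were lower and Npm1 (0.37) was higher.

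The genes whose profile was most like that of the summed members were taken over 29 library and cluster sums among 4923 genes. For the replication-dependent members they were Ube2s (Pearson r = 0.953), Hmgn2 (0.935), Anp32e (0.928), Ckap5 (0.924), Rad21 (0.917), Lsm3 (0.916), Nucks1 (0.911) and Med9 (0.908). For the replacement members they were Nudt21 (0.980), Snrpg (0.978), Hmgb1 (0.978), Lsm5 (0.976), Ptma (0.976), Hnrnpa0 (0.976), Mapre1 (0.976) and Tmpo (0.974). The sums share libraries and depend on the share of enzyme transcripts, and the values are a description.

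Single cells showed that the isthmus levels were carried unevenly. Each cell was thinned to 16880 UMIs, which left out 49 and 33 GFP+ cells and 164 and 187 Epcam+ cells. Hist1h1b then had a UMI in 28.0% (Wilson 95% interval 22.4 to 34.4) and 22.9% (17.9 to 28.8) of Epcam+ cells in cluster 3, against 41.3% (34.4 to 48.5) and 35.5% (28.7 to 43.0) in cluster 4. Unthinned, the shares were 30.9% and 26.5% in cluster 3, against 45.6% and 38.7% in cluster 4. In chief cluster 1 it had a UMI in 0 of 139 and 0 of 255 GFP+ cells, which allows up to 2.16% and 1.18%, against 0.510% and 0 of 290 Epcam+ cells, which allows up to 1.03%. These chief cells were deeper before thinning, with a median of 104488 to 167767 UMIs, against 46801 and 45016 in Epcam+ cells of cluster 4. Most UMIs of cluster 1 were of the 3 enzyme genes, so thinning on all UMIs left fewer others there. Unthinned, Hist1h1b was absent from 143 of 145 and 257 of 257 GFP+ cells, against 196 of 200 and 291 of 294 Epcam+ cells there. Hist1h3c had a UMI in 22.4% and 17.6% of cells in cluster 3, against 46.2% and 38.5% in cluster 4, and Hist1h2ae in 29.4% and 20.7%, against 54.9% and 50.9%.

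A UMI of any replication-dependent member was almost universal. It was found in 98.1% and 96.0% of Epcam+ cells in cluster 3, against 100% and 99.4% in cluster 4, and in 96.4% and 96.1% of GFP+ cells, against 94.4% and 97.9% of Epcam+ cells, in cluster 1. Without Hist1h2bc and Hist1h1c the shares in cluster 1 were 60.4% and 67.1% of GFP+ cells, against 55.6% and 57.9% of Epcam+ cells. Hist1h2bc alone had a UMI in 51.9% and 39.6% of cells in cluster 3, against 80.4% and 77.5% in cluster 4, and in every cell kept of cluster 6. H2afx had a UMI in 52.3% and 48.9% of cells in cluster 3, against 85.3% and 88.8% in cluster 4. In cluster 1 it had a UMI in 4.32% and 3.53% of GFP+ cells, against 4.08% and 5.86% of Epcam+ cells. Thinning was on all UMIs, which leaves few UMIs other than the enzyme genes in a cell of cluster 1. Unthinned, 93 of 145 and 173 of 257 GFP+ cells there, against 137 of 200 and 203 of 294 Epcam+ cells, had no H2afx UMI. For the members other than Hist1h2bc and Hist1h1c these were 1 of 145 and 2 of 257, against 4 of 200 and 8 of 294.

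Before thinning, the tenth of cells richest in Hist1h1b held 81.3% and 77.7% of its UMIs in cluster 3, against 57.8% and 62.0% in cluster 4. In cluster 4 the same share was 19.1% and 17.0% for H2afz, 25.1% and 26.7% for H3f3b and 27.8% and 32.7% for H2afx. The genes differ in abundance there, with 2698 and 1767 UMIs of Hist1h1b, 3137 and 2805 of H2afx and 21317 and 18703 of H2afz. Outside the isthmus 59 Hist1h1b UMIs fell in cluster 5 of Epcam+ 1, 61.0% of them in 3 of its 85 cells, and at most 1 in each other library of that cluster. Of those 85 cells 14 were called doublets, and their part in these UMIs was not tested.

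Over single cells the members other than Hist1h2bc and Hist1h1c varied with Top2a in both isthmus clusters. Each cell was thinned here to 12773 UMIs other than the enzyme genes, a setting chosen after seeing the data. Spearman's rho of the summed thinned UMIs of these members was 0.56 and 0.51 in cluster 3 (219 and 227 cells of Epcam+ 1 and 2), against 0.62 and 0.53 in cluster 4 (187 and 171 cells). With Mcm6 it was −0.04 and 0.11 in cluster 3, against 0.57 and 0.53 in cluster 4. Pcna, the other replication gene, gave 0.31 and 0.36 in cluster 3, against 0.51 and 0.55 in cluster 4. Mki67 gave 0.52 and 0.52, against 0.37 and 0.38. Hist1h2bc ran against Top2a in cluster 4, with −0.27 and −0.41, while H2afx went with it (0.69 and 0.61). These are descriptions over cells that share a library and a fixed depth.

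Whether GFP+ cells differed from Epcam+ cells of the same type was tested in the 5 clusters with 20 or more cells in each library, on 4 library sums each. H2afv was the only member that passed, lower in GFP+ pit cells of cluster 2. It had 61.7 and 58.4 CPM in the GFP+ libraries, against 108 and 111 CPM in the Epcam+ libraries (log2 difference −0.74 ± 0.10, edgeR adjusted p = 0.0448), and the groups did not overlap. With GFP+ 1 left out it no longer passed (edgeR adjusted p = 0.0700) and Hist1h2bc did, being lower in GFP+ cells (−0.95, edgeR adjusted p = 0.0406). In cluster 2, 0.364% of all genes tested passed, 0.155% being lower. No member passed in cluster 0 (0.159% of all genes), cluster 1 (0.0887%), cluster 5 (0.309%) or cluster 6 (0.221%) with edgeR, and DESeq2 called 0, 1, 0 and 0 members there and 2 in cluster 2. At an unadjusted p under 0.05 there were 6 replication-dependent and 4 replacement members in cluster 0, 8 and 3 in cluster 1, 5 and 5 in cluster 2, 3 and 2 in cluster 5, and 3 and 0 in cluster 6. The members of both classes tested were 20 and 10, 22 and 8, 20 and 9, 15 and 8, and 14 and 10. Of all genes tested, 11.4%, 7.97%, 16%, 8.43% and 7.01% had such a p. In cluster 5, where 8 and 4 GFP+ cells, against 14 and 11 Epcam+ cells, were called doublets, no gene passed once they were left out, against 28 with them. An exact permutation of 2 against 2 libraries cannot give a p under 0.333.

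Hist1h4h came closest in chief cells. In cluster 1 it had 12.0 and 16.2 CPM in the GFP+ libraries, against 6.03 and 7.69 CPM in the Epcam+ libraries (log2 difference 1.11 ± 0.16, edgeR adjusted p = 0.0543), so that the sorts did not overlap. The call turned on the setting, since the adjusted p was 0.0338 with library totals and 0.00196 with DESeq2, and 0.0055 to 0.0498 with any 1 library left out. Its levels did not overlap in cluster 0 either, with 8.78 and 9.43 CPM in the GFP+ libraries, against 4.28 and 4.41 CPM in the Epcam+ libraries (1.18 ± 0.25, edgeR adjusted p = 0.200), nor in cluster 5, with 9.36 and 10.1 CPM, against 6.13 and 4.38 CPM (0.96 ± 0.34, adjusted p = 0.428). In cluster 2 it had 3.82 and 4.05 CPM (11 and 7 UMIs), against 3.66 and 3.16 CPM (53 and 51 UMIs), so the order there rests on few counts. With its values in cluster 6, given above, both GFP+ libraries lay above both Epcam+ libraries in all 5 clusters. The 5 clusters come from the same libraries and are not independent of each other. The 3′ end of Hist1h4h is shared in part with other H4 genes, as given above.

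Other members differed within the spread or without passing. Hist1h4d had 55.1 and 52.6 CPM in the GFP+ libraries, against 39.9 and 37.5 CPM in the Epcam+ libraries, of cluster 0 (log2 difference 0.61 ± 0.12, edgeR adjusted p = 0.164). H2afz had 506 and 431 CPM, against 701 and 669 CPM, in cluster 2 (−0.42 ± 0.10, edgeR adjusted p = 0.114). Hist3h2ba in cluster 6, given above, stood at 1.42 ± 0.28 (edgeR adjusted p = 0.0713), and Hist3h2a in cluster 1, with 6.47 and 6.74 CPM, against 4.94 and 4.55 CPM, at 0.55 ± 0.14 (adjusted p = 0.360). Of the members tested within a cluster, the sorts did not overlap (on TMM-scaled CPM) for 12 replication-dependent members higher in GFP+ and 2 lower in cluster 0, 9 and 3 in cluster 1, 4 and 3 in cluster 2, 5 and 3 in cluster 5 and 6 and 0 in cluster 6. For the replacement members these counts were 3 and 3, 3 and 2, 0 and 7, 2 and 4, and 1 and 4. Among all genes tested, those that did not overlap and were higher or lower in GFP+ cells were 21.5% and 22.1% in cluster 0, 19.3% and 18.6% in cluster 1, 22.8% and 26% in cluster 2, 19.1% and 20.6% in cluster 5 and 18.5% and 18.2% in cluster 6. No gene of the pathway lists passed within a cluster.

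**Figure D5:**
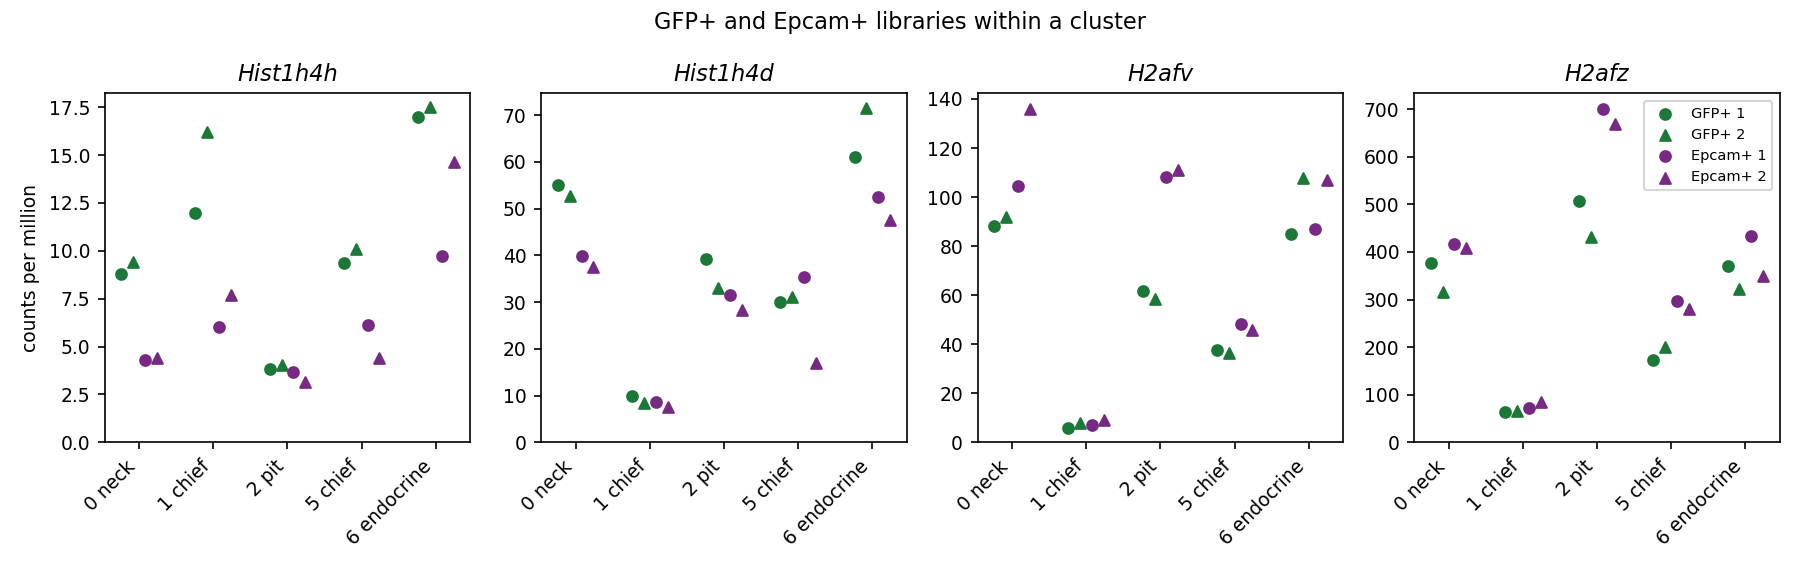
CPM of Hist1h4h, Hist1h4d, H2afv and H2afz in the 5 clusters with 20 or more cells in every library, with 1 point per library (GFP+ green, Epcam+ purple). Both GFP+ points of Hist1h4h lie above both Epcam+ points in all 5 clusters, which share the same libraries. In cluster 2 they do so narrowly, on 11 and 7 GFP+ UMIs. Both GFP+ points of H2afv and H2afz lie below both Epcam+ points in cluster 2.

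The GFP+ effect in clusters 0, 2, 5 and 6 was set against that in cluster 1 as an interaction, and no member passed with edgeR. Over all genes 0.113%, 0.286%, 0.0173% and 0.379% passed, and at an unadjusted p under 0.05 there were 7, 2, 5 and 2 replication-dependent and 1, 3, 0 and 1 replacement members, against 5.49%, 8.12%, 5.36% and 5.13% of all genes. The effect on Hist1h4i in cluster 2 minus that in cluster 1 was −1.73 ± 0.39 (edgeR adjusted p = 0.131).

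Over all cells of a library the sorts differed in many members, with a cell type makeup that differed as well. Of 54 replication-dependent members tested 6 were higher and 13 lower in GFP+ cells, and of 10 replacement members 5 were lower. Over all genes 22.7% of 14157 passed, 10.4% higher and 12.3% lower. Hist1h1b had 12.5 and 3.58 CPM in the GFP+ libraries, against 52.4 and 33.4 CPM in the Epcam+ libraries (log2 difference −1.56 ± 0.36), and Hist1h1e had 30.8 and 13.7 CPM, against 92.5 and 63.6 CPM (−0.89 ± 0.21). The others lower were Hist1h1a, Hist1h2ab, Hist1h2af, Hist1h2ak, Hist1h2bj, Hist1h2bm, Hist1h2bn, Hist1h3g, Hist1h4i, Hist2h2ac and Hist2h2bb, of which Hist1h3g had no UMI in either GFP+ library. H2afx had 16.1 and 8.28 CPM, against 63.1 and 53.6 CPM (−1.32 ± 0.12), and H2afz had 232 and 128 CPM, against 700.0 and 632 CPM (−0.93). H2afv (−0.95), H2afy (−0.67) and H3f3a (−0.45) were lower too.

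The members higher over all cells were Hist1h4h (log2 difference 2.15 ± 0.37), Hist2h3c2 (1.98), Hist2h3c1 (1.92), Hist2h4 (1.82), Hist1h2bc (0.95 ± 0.18, edgeR adjusted p = 0.0249) and Hist1h2be (0.52 ± 0.12). Hist1h4h had 11.2 and 15.1 CPM in the GFP+ libraries, against 6.43 and 6.34 CPM in the Epcam+ libraries. The sorts overlapped for Hist1h2bc before scaling, with 195 and 160 CPM, against 192 and 183 CPM, and Hist1h2be was at 7.06 and 3.68 CPM, against 7.65 and 6.75 CPM. With library totals in place of TMM factors, which moved the median of all genes to −0.95, the calls were 0 higher and 31 lower, and Hist1h2bc (−0.078) and Hist1h2be (−0.43) changed sign. With either Epcam+ library left out no member passed, and with GFP+ 1 left out 39 did. With a library left out the calls over all genes moved the same way, so these changes are not particular to the members. Of the pathway lists, 13 of 18 chaperones, 8 of 14 mRNA processing genes, 8 of 18 deposition genes, 8 of 12 linker and H2A partners and 9 of 12 S-phase entry genes tested were lower in GFP+ cells and none was higher.

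The same comparison was made without the cells of clusters 3 and 4. Of 39 replication-dependent members tested 7 were higher and none lower, and of 10 replacement members H2afv was lower (log2 difference −0.65 ± 0.10, edgeR adjusted p = 0.0371). Over all genes 7.27% of 13826 passed, 2.68% higher and 4.59% lower. Those higher were Hist1h4h (2.20 ± 0.39, edgeR adjusted p = 0.0408), Hist1h3f (2.09 ± 0.43), Hist2h3c2 (1.76), Hist2h2aa1 (1.69), Hist2h3c1 (1.65), Hist2h4 (1.61) and Hist1h2be (0.67 ± 0.14). Hist1h1b had 5 and 11 UMIs in the GFP+ libraries, against 127 and 85 in the Epcam+ libraries (−2.25 ± 0.52), and did not pass with edgeR (adjusted p = 0.0590) but was lower with DESeq2 (adjusted p = 0.0112). DESeq2 called 10 members higher and 5 lower, the others lower being H2afv, H2afz, H2afy and H3f3a, against 6.41% and 6.87% of all genes. Without the filter on low counts edgeR called 9 higher and 4 lower. With library totals, which moved the median of all genes to −0.83, 0 members were higher and 5 lower, and with either Epcam+ library left out none passed, while 22 and 15 passed with GFP+ 1 and GFP+ 2 left out. With a library left out the calls over all genes moved the same way here too. In this comparison 2 chaperones, 2 mRNA processing genes, 2 deposition genes, 3 linker and H2A partners and no S-phase entry gene were lower, and none was higher. Chief cluster 1 held 145 of 467 and 257 of 444 GFP+ cells, against 200 of 1642 and 294 of 1896 Epcam+ cells. Its share, counted over all clusters, was thus higher in the GFP+ libraries, and its part in these differences was not tested. In such sums fewer cells of a type and less RNA per cell cannot be told apart.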

How the data were processed

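The authors mapped the reads to mm10 with Cell Ranger 3.0.2, and in Seurat dropped cells above 15% mitochondrial counts, above 8000 or below 1500 genes, and those with a Ptprc or Pecam1 count. The deposited table holds raw UMI counts of 17712 genes, 21 of them without a count, in 4449 cells, each cell having its library and its cluster from the authors, and 4 barcodes occur in more than 1 library. Counts were summed per library and cluster where at least 20 cells were present. Sums were tested with edgeR 4.0.16 (R 4.3.3; TMM, filterByExpr, quasi-likelihood, two-sided, Benjamini-Hochberg over all genes, threshold 0.05) and, as an alternative, DESeq2 1.42.0. The p-values measure the spread between these libraries, and in tests across clusters the spread of cluster sums left after the library block. Whether the libraries of a sort came from separate mice is not given in the sources used here, so the spread between libraries may be technical.

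Isthmus tests used clusters rebuilt without the members in Seurat 5.3.0. The authors' clusters 3 and 4 were matched to rebuilt ones for 94.9% and 85.7% of their cells, and cluster 5 had no counterpart. Doublets (74 cells, 1.66%, Scrublet in scanpy 1.11.5) were kept and left out as an alternative. Shares have 95% Wilson intervals (scipy 1.17.1), a share of 0 allows 3 counts, and both cover counting error only. The files' gene symbols were placed by GENCODE on GRCm38, the build of mm10, and promoters come from RefSeq.

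Named genes are the 12 replication-dependent and 8 replacement members with the most counts, every member past the threshold between the sorts, and of each pathway list the 3 most abundant and the 3 with the largest called differences between clusters, and the 8 genes most like each class in profile. Others (Hist3h2ba, H1fx, H2afy2, Hist1h4a and members named by highest cluster) were chosen after their values were seen. The members and lists were chosen with earlier results of these data known. The scripts were tested on simulated data.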

Additional observations from a re-analysis of the deposited data

Results flagged for a closer look

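A signal outside the comparisons was seen in H3f3aos, the RNA annotated antisense to H3f3a, which held 76 UMIs over all libraries, 10 and 11 in the GFP+ and 25 and 30 in the Epcam+ libraries. The cells of cluster 9, which carried tuft cell markers and had fewer than 20 cells in a library, held 888 UMIs of replication-dependent histones, which entered no comparison by cluster.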

How the results depend on the processing

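Against the other clusters, 48 members passed in the isthmus, and 41 to 56 under every alternative run. In cluster 3 against cluster 4 DESeq2 gave 26 in place of 44, beside 963 of 10316 genes over all, and no library could be left out. In cluster 0 (0 members) the members past the threshold were 0 to 2 with a library left out. In cluster 1 (0 members) they were 1 with library totals, with DESeq2 and in the rebuilt clusters, 4 without the filter and 1 to 2 with a library left out. In cluster 2 (1 member) they were 4 without the filter and 2 with DESeq2. In cluster 5 (0 members) they were 2 without the filter and 0 to 3 with a library left out, 3 of them without GFP+ replicate 2. In cluster 6 (0 members) they were 1 with library totals and without the filter and 0 to 1 with a library left out. The interactions gave 1 member with library totals and 3 without the filter for cluster 2, and 1 each without the filter for clusters 5 and 6.

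Over all cells (24 members) leaving out a library gave 0 to 39, with 0 when either Epcam+ library was left out and 39 without GFP+ replicate 1. Outside clusters 3 and 4 (8 members) it gave 0 to 22, and there were 5 with library totals, 13 without the filter and 15 with DESeq2. Under library totals Hist1h2bc (−0.078) and Hist1h2be (−0.43) reversed over all cells, as did Hist1h2be (−0.15) outside clusters 3 and 4. H2afj in the isthmus ranged from −0.0050 to 0.43 with a library left out, and reversed only without Epcam+ replicate 2. The cause was not tested. Of the named members' other values 558 were kept and 84 no longer passed. Those kept hold their direction and call, or are shares of cells with a Hist1h1b UMI that stayed within their interval.

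Without the 3 enzyme genes in the denominator the ratio of cluster 4 to cluster 1 was 1.80 (replication-dependent) and 1.81 (replacement), and that of cluster 4 to cluster 0 was 1.78 (replacement). The share of cells with any replication-dependent UMI in Epcam+ libraries was 99.5% and 100% in cluster 1, 100% and 98.7% in cluster 3 and 100% in cluster 4 of Epcam+ 2 without thinning. Thinned to 12773 UMIs other than the enzyme genes, a setting chosen after seeing the data, it was 100% in cluster 1 and in cluster 4 of Epcam+ 2.

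The labels number the libraries of both sorts but do not say that a number pairs them. The correlation of deviations between same-numbered libraries was 0.369, 0.380, 0.331, −0.0308 and 0.231 in clusters 0, 1, 2, 5 and 6, and 0.347 over all cells. With the replicate number as a block the members past the threshold were 7, 6, 2 and 1 in clusters 0, 1, 2 and 6, and 16 outside clusters 3 and 4. Over all genes 665 of 11287, 412 of 10146, 222 of 10983 and 98 of 9960 passed there, and 3176 of 13826 outside clusters 3 and 4. Without the block these were 18, 9, 40, 22 and 1005. With the block Hist1h4h passed in cluster 1 (log2 difference 1.11, edgeR adjusted p = 6.44e-18) and in cluster 0 (1.18, edgeR adjusted p = 0.00825). The block leaves fewer residual degrees of freedom to 4 library sums than the main fit and rests on a pairing that the labels do not give. The size of these p-values is therefore no measure of the strength of the difference.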
